A study of Mus musculus with 20 samples.

Results

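Gadd45a, Gadd45b, Gadd45g, Cdkn1a, Trp53, Mdm2, Ccng1, Bbc3, Bax and Pmaip1 are the 3 GADD45 genes, the p53 gene and 6 genes of p53-controlled growth arrest and cell death. They were taken by symbol from a gene count table of mouse hippocampal cultures, which held all 10 among its 24419 genes. The cultures came from C57BL6 embryos at embryonic day 18, with hippocampi of 4 embryos pooled before dissociation, and were lysed at day 10 in vitro. All of them had been given 4 µM cytosine arabinoside early in culture, which removes cells that divide. A control group received a 2 min change into imaging medium, and the second group received 50 µM glutamate, the main excitatory transmitter, in that medium for 2 min. The third group received 50 µM glutamate with 10 µM ZnCl2, called zinc here. The fourth group received 50 µM glutamate with 10 µM tris(2-pyridylmethyl)amine (TPA), a zinc chelator, after 1 min in TPA alone. All cultures then recovered for 90 min in their earlier medium before poly(A) RNA was taken. The labels call the 5 libraries of each group biological replicates, but they do not say whether each came from its own pool of embryos or its own culture day, so the p-values measure the spread between these libraries.

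GADD45 proteins are small stress-induced adaptors that bind MAP3K4 and several cell-cycle proteins, and they have been linked to DNA demethylation. In hippocampal neurons Gadd45b and Gadd45g are also known as genes induced by synaptic activity. The p53 protein, encoded by Trp53, binds response elements near its targets after DNA damage and turns them on. Its level is held low by MDM2, a ubiquitin ligase that is itself a p53 target.

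Library totals ran from 28692470 to 40934630 assigned reads, with 36106575 to 39765787 in control, 35559330 to 40934630 in glutamate, 33445137 to 38435627 in zinc and 28692470 to 38767979 in TPA. Levels are given as CPM, read counts divided by TMM-scaled library size, and levels of different genes are compared only as deposited TPM, which are also divided by gene length. The stimulus was visible in Fos, the immediate early AP-1 gene, which averaged 35.1 CPM ± 4.32 (SD, n = 5) in control, 76.0 ± 19.3 in glutamate, 68.1 ± 20.7 in zinc and 77.8 ± 5.02 in TPA. All 8 neuron markers (Tubb3, Map2 and others) passed the filter on low counts, with summed levels of 7096 to 8263 CPM. The 7 astrocyte markers summed to 163 to 238 CPM, the 7 of the oligodendrocyte lineage to 23.6 to 30.8, and the 6 of proliferating cells to 5.69 to 8.62. Of the 6 microglia markers 2 passed, with sums of 2.11 to 3.3 CPM. The ranges of every marker sum overlapped between groups. Glutamate replicates 4 and 5 and zinc replicate 5 lay farthest from their group means over all genes, with root mean square deviations of 0.239 to 0.249 on the log2 scale against 0.150 to 0.217 in the rest, and results that change without them are given both ways. In RNA from whole cultures, fewer cells of a type and less RNA per cell cannot be told apart.

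The stretches before the start sites of 5 of the genes are shown so that the GADD45 genes can be set beside Cdkn1a and Ccng1, the members whose windows held a p53 element. Each runs 5′ to 3′ on the gene's own strand, from 200 bases before the RefSeq start (build GRCm38.p6) to the last base before any annotated exon, and capitals mark motif matches on either strand.
Gadd45a, chr6:67037458-67037607, minus strand: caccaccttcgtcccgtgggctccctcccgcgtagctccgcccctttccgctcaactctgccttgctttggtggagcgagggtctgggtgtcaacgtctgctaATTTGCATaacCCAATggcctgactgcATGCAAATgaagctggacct
Gadd45b, chr10:80929891-80930072, plus strand: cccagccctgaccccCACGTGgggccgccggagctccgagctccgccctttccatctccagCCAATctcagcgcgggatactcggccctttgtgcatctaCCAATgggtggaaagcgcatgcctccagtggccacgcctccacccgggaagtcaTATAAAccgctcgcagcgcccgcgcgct
Gadd45g, chr13:51846475-51846674, plus strand: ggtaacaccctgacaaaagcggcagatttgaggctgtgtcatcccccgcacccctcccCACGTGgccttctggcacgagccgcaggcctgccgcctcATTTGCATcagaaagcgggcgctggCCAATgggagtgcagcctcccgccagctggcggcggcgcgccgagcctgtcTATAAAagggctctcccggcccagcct
Cdkn1a, chr17:29090779-29090975, plus strand: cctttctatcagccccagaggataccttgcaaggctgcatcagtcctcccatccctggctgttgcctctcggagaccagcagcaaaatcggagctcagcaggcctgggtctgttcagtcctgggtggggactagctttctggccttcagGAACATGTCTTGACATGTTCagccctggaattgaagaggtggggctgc
Ccng1, chr11:40755312-40755486, minus strand: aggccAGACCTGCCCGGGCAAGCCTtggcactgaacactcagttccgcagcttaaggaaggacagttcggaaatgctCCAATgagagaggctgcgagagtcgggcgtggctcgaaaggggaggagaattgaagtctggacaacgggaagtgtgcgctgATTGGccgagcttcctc

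The motifs searched on both strands of the 250 bases before each start were the CCAAT box (CCAAT), the octamer (ATGCAAAT), an E-box (CACGTG), the TATA box (TATAAA), the cAMP response element half-site (TGACG) and the AP-1 site (TGANTCA). No searched motif contains another. The p53 response element was searched by name as 20 bases of adjoining decamers with at most 1 mismatch. Over 32851 RefSeq windows of this length, 33.8% held CCAAT, 1.6% the octamer, 6.02% the E-box, 12.4% TATAAA, 17.8% the half-site, 6.75% the AP-1 site and 0.0578% (19 windows) the p53 element. All 3 GADD45 windows held CCAAT, Gadd45a and Gadd45g held the octamer, and Gadd45b and Gadd45g held both the E-box and TATAAA. Positions are counted back from -1, the last base before the start. In Gadd45g the E-box began at -142, the octamer at -103, CCAAT at -78 and TATAAA at -27. The octamers of Gadd45a began at -97 and -70, on either side of CCAAT at -86. Cdkn1a held the p53 element from -51 to -32 of the start shown, and the window of its second RefSeq start held none of the searched motifs. Ccng1 held the p53 element from -195 to -176, and CCAAT at -216, -123 and -42. RefSeq windows were found for 9 of the 10 genes, 12 windows in all, and 7 of the 12 held CCAAT (those of Trp53 and Mdm2 and 1 of Bbc3 besides those named), 4 the E-box (Bax and Bbc3 too), 3 TATAAA, 2 the octamer, 2 the p53 element, 1 the half-site and 0 the AP-1 site. The 12 windows are not alike. The bases after the Bbc3 starts were not found in transcripts of that gene in the GENCODE annotation, and 2 of its windows overlap. Exons of Wrap53 cover 147 of the 250 bases of the Trp53 window, and an annotated exon covers all 250 of the second Cdkn1a window. A match is a run of letters and not a measured binding site, and a missing match says only that these letters are not in this window.

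**Figure D1:**
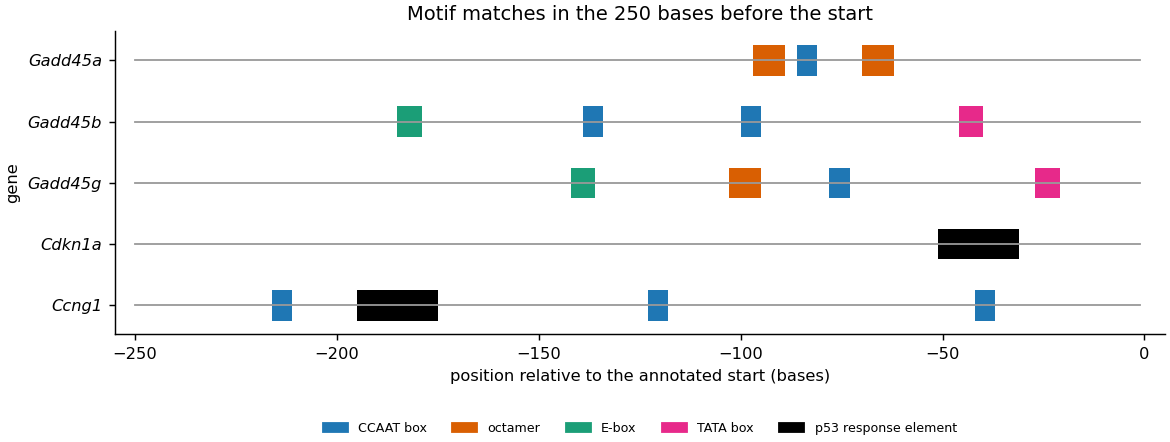
Motif matches in the 250 bases before each RefSeq start site, plotted as distance from the start in bases (x axis) for the 5 genes whose sequences are printed (rows), with 1 colour per motif and each block as wide as the match. CCAAT boxes are in the 3 GADD45 rows and, 3 times, in the Ccng1 row, and the p53 elements are in the Cdkn1a and Ccng1 rows.

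Per length, the genes were spread over a wide range, given here as means over all 20 libraries. The highest was Cdkn1a, the cyclin-dependent kinase inhibitor p21, at 162 TPM ± 13.1 (SD). Next came Bax, the pore-forming death effector of mitochondria, at 139 ± 6.39, and Ccng1, cyclin G1, a p53 target that recruits phosphatase PP2A, at 68.9 ± 2.81. Gadd45g followed at 42.8 ± 8.51, and then Bbc3 (PUMA, a BH3-only death protein) at 35.7 ± 3.09, Mdm2 at 33.8 ± 1.32, Trp53 at 31.3 ± 2.46 and Pmaip1 (NOXA, also BH3-only) at 27.0 ± 2.50. The place of Gadd45g differed by group: in control it averaged 33.8 TPM ± 1.81 (n = 5), between Bbc3 at 34.3 ± 1.78 and Mdm2 at 33.2 ± 1.38, and in the stimulated groups 44.6 to 47.2, above both. Gadd45b at 12.9 ± 1.71 TPM and Gadd45a at 6.21 ± 1.28 were the lowest. The library ranges of neighbours in this order overlapped at each step from Ccng1 (64.4 to 74.9 TPM) through Gadd45g (32 to 67.3) to Pmaip1 (22.8 to 31.2), as did those of Cdkn1a (139 to 183) and Bax (123 to 148). Gadd45g reached the Ccng1 range only in glutamate replicate 4, and its next highest library was TPA replicate 1 at 53.1 TPM. Bax did not overlap Ccng1, Gadd45b (9.56 to 16.9) did not overlap Pmaip1, and Gadd45a (4.44 to 8.75) did not overlap Gadd45b. Gadd45g made up 66.9% of the summed GADD45 TPM in control, 69.3% in glutamate, 67.6% in zinc and 71.2% in TPA.

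**Figure D2:**
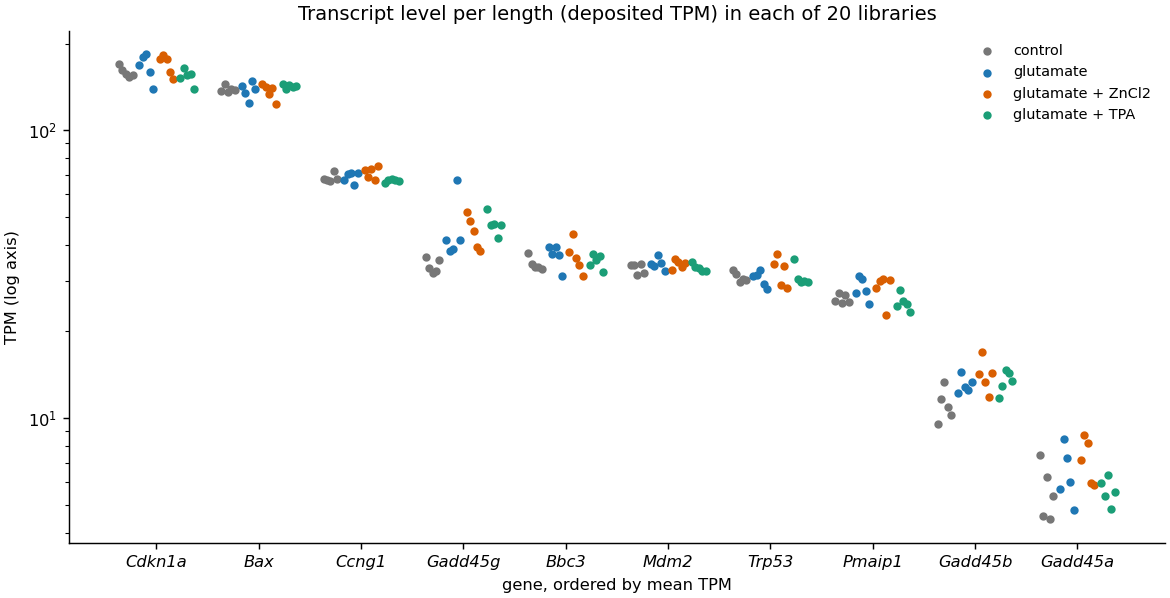
Deposited TPM (y axis, log scale) of the 10 genes in each of the 20 libraries, coloured by group. Cdkn1a and Bax are highest and Gadd45a is lowest in every group.

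Gadd45g, on chromosome 13 (51846675 to 51848474, plus strand, mm10), was the member whose libraries separated by treatment. In control its level was 12.9, 11.9, 11.5, 11.8 and 12.7 CPM in replicates 1 to 5 (mean 12.2 ± 0.589 SD, n = 5). With glutamate it was 14.7, 13.6, 13.5, 24.3 and 15.1 CPM (16.2 ± 4.56). With zinc it was 18.7, 17.2, 16.2, 14.3 and 13.8 CPM (16.0 ± 2.05), and with TPA 19.4, 16.6, 17.0, 15.2 and 16.8 (17.0 ± 1.51). Every one of the 15 glutamate-stimulated libraries, at 13.5 to 24.3 CPM, lay above all 5 controls, at 11.5 to 12.9. The stimulated groups overlapped one another, and glutamate replicate 4 stood far above the other 4 of its group. Of the 14411 genes tested, 6 (0.0416%) had all stimulated libraries above all controls and 0 had all below: Fos, Fosb, Klf4, Nfkbiz, Tmem163 and Gadd45g. Tmem163 falls outside the rule for named genes and was named after its values were seen.

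Markers of the oligodendrocyte lineage had lower fitted values in the same comparisons. All 6 that passed the filter had negative log2 fold changes in the averaged contrast (median -0.181) and for zinc against control (median -0.158), and 0 of them had unadjusted p under 0.05 in either. The sums of the 7 markers listed were 25.7 to 28.0 CPM in control, 23.6 to 30.8 in glutamate, 24.4 to 26.2 in zinc and 25.1 to 27.9 in TPA, the defining marker Sox10 averaged 0.00656 CPM, and their part in the GADD45 differences was not tested. Other marker lists were one-sided too. All 8 neuron markers were negative for glutamate against control (median -0.036). All 5 GABAergic neuron markers were negative for TPA against control (median -0.040) and TPA against zinc (median -0.031).

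Fitted differences of Gadd45g from control were of like size for the 3 stimuli. The log2 fold change was 0.42 (SE 0.13, unadjusted p = 0.0031) for glutamate, 0.40 (SE 0.13, unadjusted p = 0.00447) for zinc and 0.48 (SE 0.13, unadjusted p = 0.000924) for TPA. Averaged over the 3 stimulated groups it was 0.43 (SE 0.10), a fold of 1.35, with unadjusted p = 0.000444. None passed after Benjamini-Hochberg adjustment over all genes in edgeR's quasi-likelihood test, with adjusted p = 0.783, 0.279, 0.888 and 0.376 in that order. Across all genes tested, adjusted p was under 0.05 for 0.0416% in glutamate against control, 0.0555% in zinc against control, 0.0694% in TPA against control and 0.0416% in the averaged contrast, and 0 of the 10 genes were among them in any of the 4. Glutamate replicate 4 set much of the glutamate estimate: without it the log2 fold change was 0.23 in place of 0.42, while the averaged contrast was 0.37 with adjusted p = 0.0198. Without the 3 libraries that stood apart, the adjusted p was 0.00797 for zinc (log2 fold change 0.45), 0.00122 for TPA (0.48) and 0.00468 for the averaged contrast (0.38). That exclusion was chosen after the data were seen. Over all genes it gave 274, 12 and 13 calls in that order, in place of 8, 10 and 6.

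**Figure D3:**
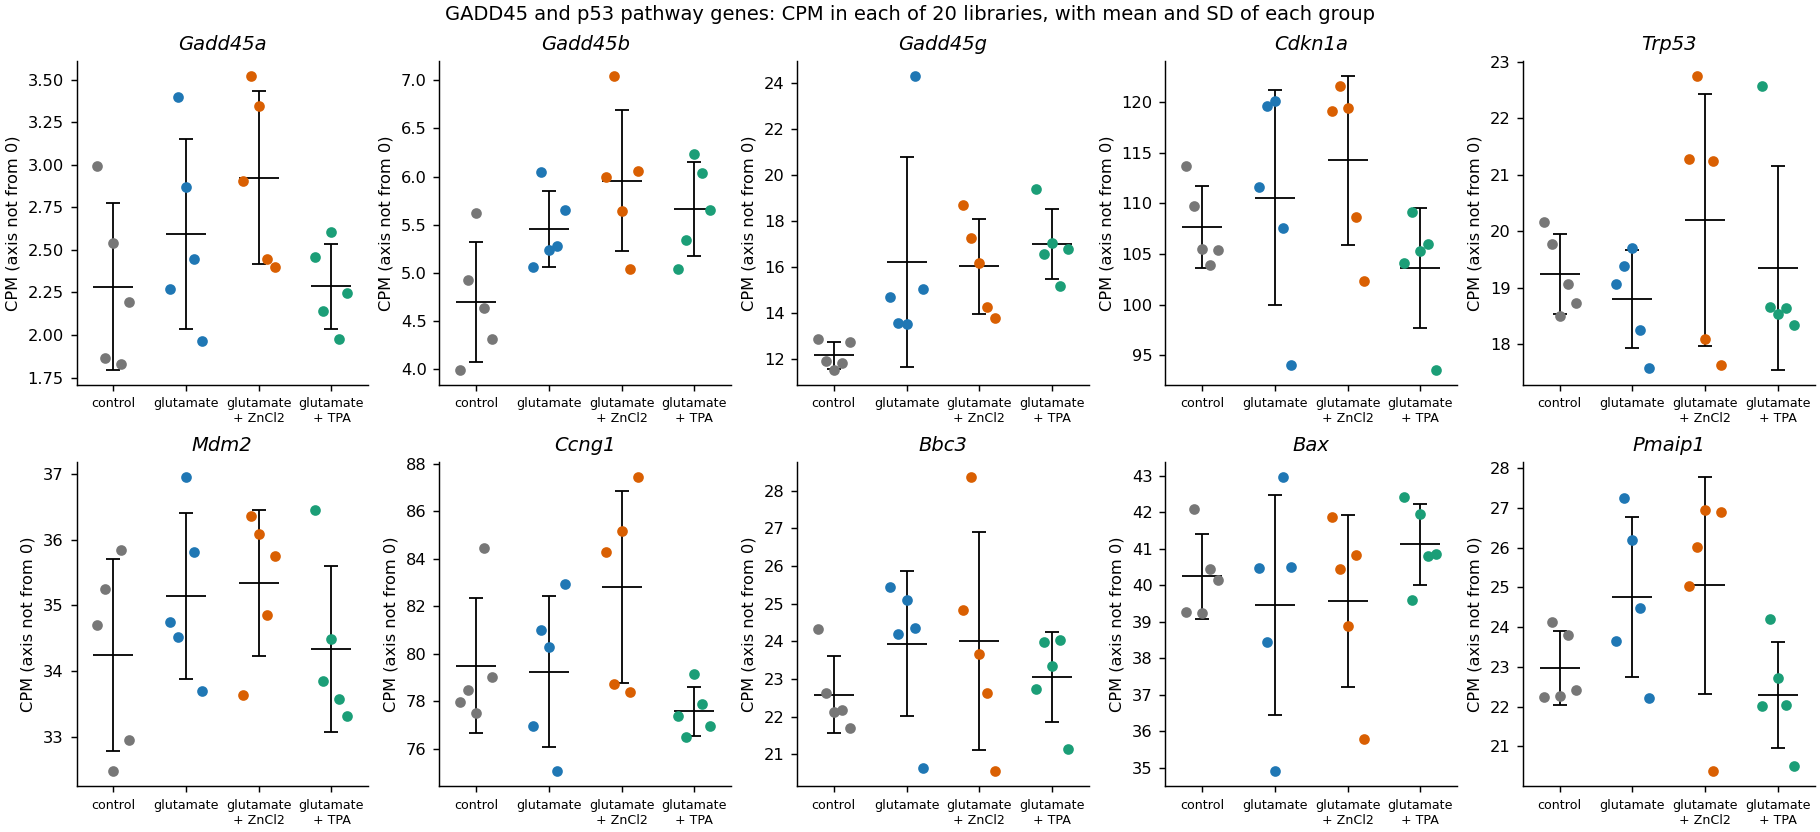
CPM of each of the 10 genes (1 panel per gene, y axis) by group (x axis), with 1 point per library and a bar at the group mean with its SD. In the Gadd45g panel all 15 stimulated libraries sit above the 5 controls, which lie between 11.5 and 12.9 CPM.

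With all libraries kept, the fitted level of Gadd45g with added or chelated zinc was close to that with glutamate alone. The difference was -0.02 for zinc against glutamate (95% interval -0.28 to 0.24), 0.07 for TPA against glutamate (-0.19 to 0.32) and 0.08 for TPA against zinc (-0.17 to 0.34), all log2. The intervals are wide beside the differences and do not show that the 3 stimuli acted alike. Against glutamate alone the values turned on replicate 4 of that group: without it they were 0.18 for zinc and 0.26 for TPA. Below every TPA library lay 4 glutamate libraries, and below every zinc library 2, while glutamate replicate 4 lay above both groups. Without the 3 libraries that stood apart, TPA against glutamate was 0.29 with adjusted p = 0.0467, and zinc against glutamate 0.25 with adjusted p = 0.191. This exclusion was chosen after the data were seen. With it the calls over all genes went from 0 to 600 and from 0 to 7 in that order.

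Gadd45b, on chromosome 10 (80930091 to 80932204, plus strand), showed a smaller shift in the same direction. Its controls were at 3.99, 4.92, 5.62, 4.64 and 4.31 CPM (mean 4.70 ± 0.624 SD, n = 5). With glutamate it stood at 5.06, 6.05, 5.23, 5.27 and 5.66 CPM (5.45 ± 0.397), and with zinc at 6.00, 7.05, 5.64, 5.04 and 6.06 (5.96 ± 0.732). TPA libraries held 5.04, 5.34, 6.24, 6.03 and 5.65 CPM (5.66 ± 0.490). Control replicate 3 was high for its group, and the other 4 controls lay below every stimulated library. Against control the log2 fold change was 0.21 (SE 0.096, unadjusted p = 0.0362) with glutamate, 0.34 (SE 0.096, unadjusted p = 0.00171) with zinc and 0.27 (SE 0.097, unadjusted p = 0.0115) with TPA. None passed the threshold on edgeR's adjusted p (0.939, 0.211 and 1.00), and the averaged contrast gave 0.27 (SE 0.080) with adjusted p = 0.987. Zinc against glutamate differed by 0.13 (95% interval -0.07 to 0.32), and TPA against zinc by -0.07 (-0.27 to 0.12).

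Gadd45a, on chromosome 6 (67035096 to 67037407, minus strand), is the family member best known as a p53 target, and it was the one with the fewest reads, 58 to 138 per library. Its controls were at 2.99, 1.86, 2.54, 1.83 and 2.19 CPM (mean 2.28 ± 0.490 SD, n = 5), and glutamate libraries at 2.27, 3.4, 2.87, 2.45 and 1.97 (2.59 ± 0.558). With zinc it was 2.91, 3.52, 3.35, 2.45 and 2.40 CPM (2.93 ± 0.510), and with TPA 2.46, 2.14, 2.60, 1.98 and 2.25 (2.29 ± 0.249). Controls and glutamate libraries spread over each other, while 3 of 5 zinc libraries lay above every TPA library. The log2 fold change was 0.36 (SE 0.15, unadjusted p = 0.0283) for zinc against control and -0.35 (SE 0.16, unadjusted p = 0.0348) for TPA against zinc, with adjusted p = 0.397 and 0.264 in edgeR. TPA against control was 0.01 (SE 0.16). Counting error alone gives a coefficient of variation of 10.4% at this depth, against 20.1% observed over the 20 libraries, which includes differences between groups. Within groups it was 21.5% in control, 21.5% in glutamate, 17.4% in zinc and 10.9% in TPA, where counting alone gives 11.3%. Exons of Gadd45a overlap those of E230016M11Rik on the opposite strand over 238 bases, 19.4% of the gene's counted length. That gene had 24 to 68 reads per library, and the sources do not state whether strand was used in counting, so reads of the pair may not be fully told apart.

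Trp53 on chromosome 11 (69580359 to 69591873) and Mdm2 on chromosome 10 (117688875 to 117710758) stayed near their control levels. Trp53 averaged 19.2 CPM ± 0.704 (SD, n = 5) in control, 18.8 ± 0.868 in glutamate, 20.2 ± 2.23 in zinc and 19.3 ± 1.81 in TPA. The zinc libraries split, with 21.3, 22.8 and 21.2 CPM in replicates 1, 2 and 4 and 18.1 and 17.6 in replicates 3 and 5. Its log2 fold changes ran from -0.06 for TPA against zinc to 0.11 for zinc against glutamate, with SEs of 0.056 to 0.069. Mdm2 averaged 34.2 CPM ± 1.47 in control, 35.1 ± 1.26 in glutamate, 35.3 ± 1.11 in zinc and 34.3 ± 1.26 in TPA. Its largest difference in either direction was 0.05 (95% interval -0.04 to 0.13), for zinc against control, and it varied least of the 10 genes, with a coefficient of variation of 3.67% over the 20 libraries.

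Cdkn1a, on chromosome 17 (29090986 to 29100722, plus strand), was the most abundant member and did not separate by stimulus against control. Its level was 114, 110, 106, 104 and 105 CPM in control (mean 108 ± 4.02 SD, n = 5) and 112, 120, 120, 108 and 94.1 with glutamate (111 ± 10.7). With zinc it was 119, 122, 119, 109 and 102 CPM (114 ± 8.35), and with TPA 104, 109, 105, 106 and 93.5 (104 ± 5.92). Replicates 5 of the 3 stimulated groups were each the lowest of their group, and 3 of 5 zinc libraries lay above every TPA library. Against control the log2 fold change was 0.04 (95% interval -0.09 to 0.16) for glutamate, 0.09 (-0.04 to 0.21) for zinc and -0.06 (-0.18 to 0.07) for TPA. TPA against zinc was -0.14 (SE 0.060, unadjusted p = 0.0277, adjusted p = 0.239 in edgeR). Without the 3 libraries that stood apart that difference was -0.18 with adjusted p = 0.0201, and TPA against glutamate was -0.18 with adjusted p = 0.0451. The exclusion was chosen after the data were seen. With it the calls over all genes went from 72 to 1196 and from 0 to 600 in that order.

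Ccng1, on chromosome 11 (40748552 to 40755286, minus strand), varied little within the TPA group and more within the zinc group. Zinc libraries held 84.3, 78.7, 85.2, 78.4 and 87.5 CPM (mean 82.8 ± 4.03 SD, n = 5), and TPA libraries 77.4, 76.5, 79.2, 77.9 and 77 (77.6 ± 1.02). Of the 5 TPA libraries 4 lay below every zinc library, and the groups overlapped through TPA replicate 3. The log2 difference of TPA against zinc was -0.09 (SE 0.038, unadjusted p = 0.0204, adjusted p = 0.211 in edgeR). Controls averaged 79.5 CPM ± 2.84 and glutamate libraries 79.2 ± 3.18, and no difference from control exceeded 0.06 in size on the log2 scale.

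Among the death genes, Pmaip1, on chromosome 18 (66458604 to 66465558), had the largest differences. Its level was 22.2, 24.1, 22.3, 23.8 and 22.4 CPM in control (mean 23.0 ± 0.920 SD, n = 5) and 23.7, 27.3, 26.2, 24.5 and 22.2 with glutamate (24.8 ± 2.01). Zinc libraries held 25.0, 26.0, 26.9, 20.4 and 26.9 CPM (25.1 ± 2.73), and TPA libraries 22, 24.2, 22.7, 22 and 20.5 (22.3 ± 1.34). Of the 5 zinc libraries 4 lay above every TPA library, and zinc replicate 4 lay below all 5. TPA against zinc was -0.17 on the log2 scale (SE 0.069, unadjusted p = 0.0221, adjusted p = 0.218 in edgeR), and TPA against glutamate was -0.15 (SE 0.069, unadjusted p = 0.0376, adjusted p = 0.672). Without zinc replicate 4 the former was -0.24 with adjusted p = 0.0209. In that fit 895 genes in all passed for TPA against zinc, in place of 72. Bbc3, on chromosome 7 (16309583 to 16318334), averaged 22.6 CPM ± 1.02 in control, 23.9 ± 1.92 in glutamate, 24 ± 2.90 in zinc and 23.1 ± 1.19 in TPA. Bax, also on chromosome 7 (45461695 to 45466898), averaged 40.2 CPM ± 1.16, 39.5 ± 3.01, 39.6 ± 2.37 and 41.1 ± 1.11 in the same order. For both genes the libraries of all groups overlapped, and every 95% interval of a log2 difference included 0.

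**Figure D4:**
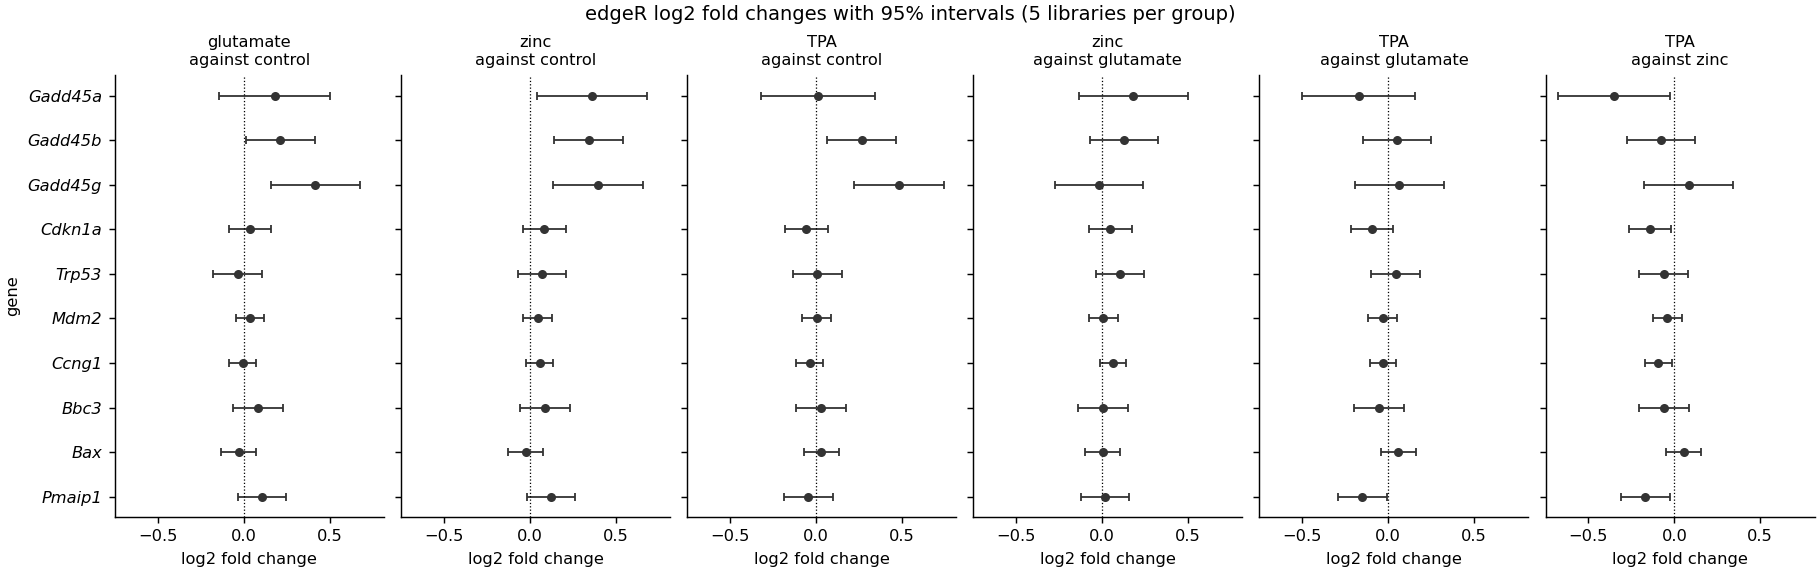
Log2 fold changes from edgeR (x axis) of the 10 genes (rows) in 6 comparisons (panels), with points for estimates and bars for 95% intervals not adjusted for the number of genes, 5 libraries per group. The intervals of Gadd45b and Gadd45g lie wholly above 0 in the 3 panels against control, as does that of Gadd45a for zinc. For TPA against zinc 8 of 10 points are below 0, and the whole interval is below 0 for 4 of them (Gadd45a, Cdkn1a, Ccng1 and Pmaip1).

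Counted over the 10 genes, the differences that passed before adjustment fell in a few comparisons. At unadjusted p under 0.05, 2 of the 10 were higher with glutamate than in control (Gadd45b and Gadd45g), beside 3.16% of all genes tested. With zinc 3 of 10 were higher than control (the GADD45 genes), beside 5.41% of all genes, and with TPA 2 of 10 (Gadd45b and Gadd45g), beside 1.82%. TPA against zinc had 4 of 10 lower (Gadd45a, Cdkn1a, Ccng1 and Pmaip1), beside 7.81% of all genes. Zinc against glutamate had 0, beside 6.13% of all genes in either direction, and TPA against glutamate had 1 lower (Pmaip1), beside 4.11% lower and 7.3% in either direction. After adjustment 0 of 10 passed in each of the 7 comparisons, where 0.5% of all genes passed for TPA against zinc. The percentage was 0 for zinc against glutamate and for TPA against glutamate, where DESeq2 called 1 gene each and limma-voom 0, and where 883 and 1052 genes had unadjusted p under 0.05. The comparisons against control share the same 5 control libraries, and those with zinc or with glutamate share theirs, so these counts are not separate pieces of evidence. In the authors' deposited tables, whose fold changes are shrunken toward 0, 0 of the 10 genes passed in any of 6 comparisons. Gadd45a had no adjusted p there for zinc against control, so it could not pass in that comparison. Over all genes 11 passed there for glutamate, 59 for zinc and 10 for TPA against control. Zinc and TPA against glutamate had 1 each, and zinc against TPA had 456. There Gadd45b in zinc against control had log2 fold change 0.192 and adjusted p = 0.0865, and Gadd45g had 0.18 and 0.128 in the authors' deposited table of the same comparison.

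Some p53 targets varied together across libraries and others in opposite directions. Of the 45 pairs of the 10 genes, 8 had a Pearson correlation of log2 CPM over 0.5 across the 20 libraries (17.8%, beside 7.44% of all pairs among 12519 genes that averaged 1 CPM or more), and 10 were below 0 (22.2%, beside 50.4%). With the group means removed, 6 of the 45 pairs were over 0.5, beside 8.93% of all pairs. The strongest pair was Cdkn1a with Bbc3, at 0.81, and it stood at 0.85 once the group means were removed. Gadd45a followed Cdkn1a at 0.72 (0.66 without the group means), and Cdkn1a followed Pmaip1 at 0.65 (0.54). The other way, Bax with Pmaip1 was at -0.495 (-0.400), Bax with Ccng1 at -0.44 (-0.40) and Ccng1 with Bbc3 at -0.285 (-0.492). Gadd45g and Gadd45b were at 0.37 and turned to -0.14 once the group means were removed. These coefficients are descriptions over libraries that share depth, culture and group. Glutamate replicate 5 was the lowest of its group for 6 of the 10 genes (Gadd45a, Cdkn1a, Trp53, Mdm2, Bbc3 and Pmaip1). Zinc replicate 5 was likewise lowest for 6 (Gadd45a, Gadd45g, Cdkn1a, Trp53, Bbc3 and Bax), and zinc replicate 2 was highest for 6 (Gadd45a, Gadd45b, Cdkn1a, Trp53, Mdm2 and Bbc3).

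The genes most like each of 4 members over the 20 libraries were sought among 12518 genes whose mean level reached 1 CPM, by Pearson correlation of log2 CPM. For Gadd45g they were immediate early genes: Junb (0.88), an AP-1 subunit, Ier2 (0.86) and Npas4 (0.85), a neuronal activity-dependent transcription factor. Without glutamate replicate 4 all 3 were at 0.85. For Gadd45b they were Papd4 (0.75), a cytoplasmic poly(A) polymerase, Actrt3 (0.73) and Nfkbiz (0.69), a nuclear regulator of NF-kappaB targets. Gadd45a was most like 6820431F20Rik (0.85), Hk2 (0.82), a hexokinase of glycolysis, and Cd68 (0.82), a lysosomal protein of macrophages and microglia. Of the 6 microglia markers Csf1r averaged 2.38 CPM and each of the other 5 averaged at most 0.279 CPM. The 2 that passed the filter, Aif1 and Csf1r, had log2 fold changes of -0.55 (SE 0.27) and -0.07 (SE 0.12) for TPA against zinc, with list sums of 2.92 to 3.29 CPM in zinc and 2.28 to 3.3 in TPA, and their part in the Gadd45a difference was not tested. Cdkn1a was most like Bcat1, Insig1 and Fibin, each at 0.94. Bcat1 starts the breakdown of branched-chain amino acids and Insig1 restrains sterol synthesis. All these coefficients were picked as the highest of 12518 for their gene, so the search itself favours high values. Group means were not removed, and 7.44% of all pairs among such genes were over 0.5.

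None of 6 lists of related genes had a member past the adjusted threshold in any of the 7 comparisons. All 40 other p53 target genes were tested, and their median log2 fold change was 0.0111 for the averaged contrast against control, beside -0.000533 for all genes. Btg2, an antiproliferative gene that is also activity-induced, was at 0.32 (SE 0.093, unadjusted p = 0.00237) for glutamate against control and -0.28 (SE 0.094, unadjusted p = 0.00617) for zinc against glutamate, with adjusted p = 0.757 and 0.722. Sesn2, a stress sensor that restrains mTORC1, averaged 44.1 CPM in control, 58.6 in glutamate, 61.0 in zinc and 42.8 in TPA. Its log2 difference of TPA against zinc was -0.52 (SE 0.21, unadjusted p = 0.0249, adjusted p = 0.231). Ddit4, another mTORC1 inhibitor, and Tigar, a regulator of glycolysis, were at -0.13 (SE 0.053) and -0.09 (SE 0.041) in that comparison, with adjusted p = 0.242 and 0.297. Of the 40 genes, 3 were lower there at unadjusted p under 0.05, beside 7.81% of all genes, and 0 were higher, beside 8.44%. In the whole list 18 were positive and 22 negative there, with a median of -0.0127 beside -0.00114 for all genes.

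Of 24 p53 regulators and relatives, 23 were in the table and tested. Chek2, the checkpoint kinase that phosphorylates p53 after DNA breaks, averaged 1.02 CPM in control, 1.26 in glutamate, 1.64 in zinc and 1.04 in TPA. Its log2 fold change was 0.69 (SE 0.17, unadjusted p = 0.000701, adjusted p = 0.184) for zinc against control and -0.67 (SE 0.18, unadjusted p = 0.000977, adjusted p = 0.0742) for TPA against zinc. Ep300, an acetyltransferase that acts on p53, was at -0.18 (SE 0.056, unadjusted p = 0.00478, adjusted p = 0.279) for zinc against control. At unadjusted p under 0.05, 1 of the 23 was higher and 1 lower for zinc against control, TPA against zinc and zinc against glutamate. Of all genes 11.2%, 16.2% and 6.13% passed so in either direction. For zinc against glutamate Chek2 was at 0.38 (SE 0.17, adjusted p = 0.783) and Chek1 at -0.33 (SE 0.13, adjusted p = 0.746). Chek1 was named after its values were seen. In the list of the BCL2 family and caspase pathway 21 of 27 genes passed the filter, and Bcl2l1, which encodes the survival protein BCL-XL, was at 0.10 (SE 0.036, unadjusted p = 0.00875, adjusted p = 0.152) for TPA against zinc. Of the MAP kinase pathway that GADD45 proteins feed, 13 of 14 genes were tested, and Mapk14, the stress kinase p38 alpha, was at 0.12 (SE 0.037, unadjusted p = 0.00368, adjusted p = 0.11) in the same comparison.

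Of the enzymes of DNA demethylation and methylation 17 of 22 were tested. Ung, a uracil DNA glycosylase, was at -0.35 (SE 0.10, unadjusted p = 0.00249, adjusted p = 0.601) for zinc against glutamate, and Dnmt3a, a DNA methyltransferase, was at 0.13 (SE 0.061, unadjusted p = 0.0515) for TPA against zinc. Among cyclins, CDKs and CDK inhibitors 27 of 28 were tested, and Cdk5, the neuronal kinase of this family, was at 0.12 (SE 0.038, unadjusted p = 0.00554, adjusted p = 0.128) for TPA against zinc. Cdkn1b, the inhibitor p27, was at -0.17 (SE 0.068, unadjusted p = 0.0174, adjusted p = 0.199) there. The median log2 fold changes of the 6 lists lay between -0.00458 and 0.0127 in the averaged contrast and between -0.0127 and 0.0683 for TPA against zinc, beside 0.0459 and -0.0684 for the 10 genes and -0.000533 and -0.00114 for all genes. In contrast, 5 of 14 activity-induced reference genes passed as higher in the averaged contrast (median 0.52), 5 with glutamate, 3 with zinc and 8 with TPA. These reference genes were picked because neurons are known to induce them, and their levels in these data were known.

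**Figure D5:**
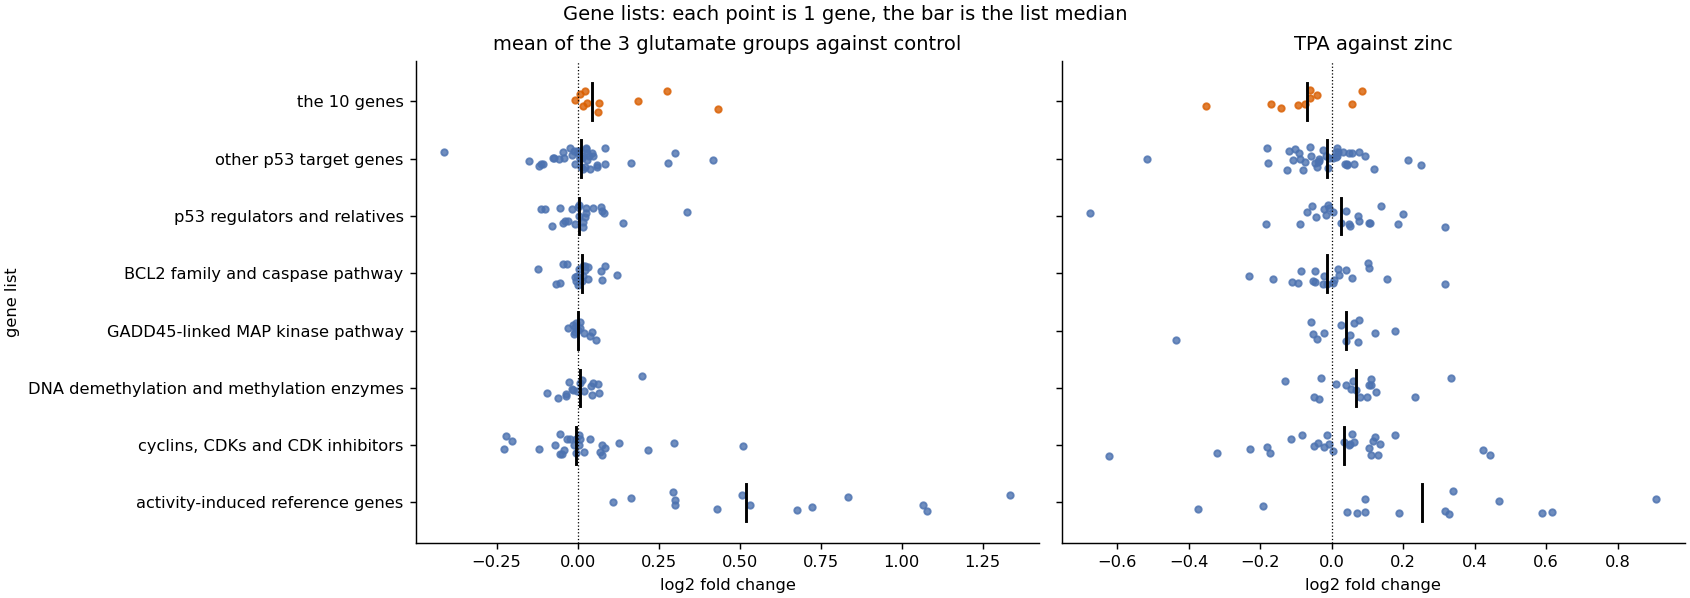
Log2 fold changes from edgeR (x axis) for the 10 genes and 7 gene lists (rows), with 1 point per gene and a bar at the list median, in the mean of the 3 stimulated groups against control (left) and TPA against zinc (right). The 6 pathway lists centre near 0 on the left, where the activity-induced genes have a median of 0.52.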

How the data were processed

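Poly(A) RNA of 20 hippocampal cultures, 5 in each of 4 groups, was sequenced from stranded libraries. Per the submitters' processing notes, the authors used Trimmomatic 0.36, HISAT2 2.1.0, SAMtools 1.3.1, featureCounts and R 3.3.0 with build mm10. These notes do not say whether strand was used in counting. The deposited count table holds whole-number counts per gene, the deposited TPM values equal counts divided by gene length and rescaled, and the authors' DESeq2 1.14.1 tables give log2 fold changes and adjusted p-values. The deposited annotation gives each gene's exon length in bases and its position.

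Counts were tested in R 4.3.3 with edgeR 4.0.16 (TMM, filterByExpr, glmQLFit and glmQLFTest) on all 20 libraries with 4 group means, which left 14411 genes holding 99.98% of counts and all 10 members. The 7 comparisons were 6 pairs and the mean of the 3 stimulated groups against control. P-values were adjusted by Benjamini-Hochberg over all genes, with a threshold of 0.05. Log2 CPM used a prior count of 2. The fit was tested on simulated data. Alternatives were DESeq2 1.42.0, its size factors, limma-voom (limma 3.58.1), other filters, only the groups compared, a replicate block and each replicate left out. Robust edgeR fitting, library weights and leaving out the 3 farthest libraries were chosen after seeing the data. The members and lists were chosen with earlier results of these data known. Text named all 10 genes, members of each list past the threshold or otherwise at most the 3 with the smallest unadjusted p, the 3 genes most like each of 4 members, and Fos, Fosb and Klf4 as the check of the stimulus. Group, replicate and label of a library came from its title.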

Additional observations from a re-analysis of the deposited data

Results flagged for a closer look

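Each of the 10 genes was looked at in each of the 4 groups for a library set apart from the other 4, by the gap to its nearest neighbour divided by the whole range (Dixon's 95% critical value for 5 samples). Chance flags about 1 in 20 groups, and 4 of 40 groups had such a library. Gadd45g in glutamate replicate 4 was at 24.3 CPM, with the nearest library at 15.1 and a group median of 14.7 (gap ratio 0.859). Trp53 in TPA replicate 1 was at 22.6 CPM, with the nearest library at 18.6 (0.925). Ccng1 in control replicate 4 was at 84.5 CPM, with the nearest at 79.0 (0.781). Bbc3 in glutamate replicate 5 was at 20.6 CPM, below the nearest at 24.2 (0.739). Glutamate replicates 4 and 5 were also among the 3 libraries farthest from their group means over all genes.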

How the results depend on the processing

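The number of the 10 genes past the threshold was 0 in all 7 comparisons under edgeR with DESeq2's size factors, limma-voom, both other filters, robust fitting and the replicate block. DESeq2 gave 1 for the averaged contrast (Gadd45g, log2 fold change 0.431, adjusted p = 0.0424), and fitting only the groups compared, which is not separate for the averaged contrast, gave 1 for TPA against control (Gadd45g, 0.485, adjusted p = 0.00132). Over all genes these fits gave 16 and 13 in the same 2 comparisons. Library weights gave 4 for TPA against zinc, 4 for zinc against control, 1 for TPA against control and 1 for the averaged contrast. Over all genes the weights gave 3131, 1825, 11 and 33 in that order. Leaving out the 3 farthest libraries gave 2 for TPA against glutamate and 1 each for TPA against zinc, zinc against control, TPA against control and the averaged contrast. Of all genes, 600, 1196, 274, 12 and 13 passed there in that order. With 1 replicate left out at a time the number was 0 to 1 for the averaged contrast (1 without glutamate replicate 4) and 0 to 1 for TPA against zinc (1 without zinc replicate 4), and 0 otherwise. Over all genes the averaged contrast had 5 to 9 in these fits, and TPA against zinc had 895 without zinc replicate 4.

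Signs turned only for differences with unadjusted p of 0.388 or more in the edgeR fit. Gadd45g in zinc against glutamate was 0.0105 with limma-voom, 0.196 with weights and 0.252 without the 3 libraries. With weights Trp53 was -0.0227 in TPA against glutamate and -0.0303 in TPA against control, Mdm2 -0.0065 in TPA against control and Gadd45g -0.0297 in TPA against zinc. Without the 3 libraries Trp53 was 0.0106 in glutamate against control and -0.000639 in TPA against glutamate, Bax 0.00918 in zinc against control, and Mdm2 -0.00677, Bbc3 -0.00119 and Pmaip1 -0.0633 in zinc against glutamate.

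Over fits without 1 replicate, ranges that crossed 0 were, against control, -0.0189 to 0.0208 (Ccng1) and -0.0591 to 0.0149 (Bax) for glutamate, -0.0429 to 0.00933 (Bax) for zinc, and -0.0569 to 0.124 (Gadd45a), -0.0521 to 0.0285 (Trp53) and -0.0164 to 0.0223 (Mdm2) for TPA. In the averaged contrast they were -0.00462 to 0.0332 (Trp53), -0.0026 to 0.0299 (Ccng1) and -0.0164 to 0.0105 (Bax). In zinc against glutamate they were -0.0805 to 0.176 (Gadd45g), -0.00904 to 0.0844 (Cdkn1a), -0.0107 to 0.025 (Mdm2), -0.0658 to 0.0564 (Bbc3), -0.0401 to 0.0377 (Bax) and -0.0232 to 0.0813 (Pmaip1), and elsewhere -0.0204 to 0.0627 (Trp53, TPA against glutamate) and -0.112 to 0.00881 (Bbc3, TPA against zinc). The cause of these changes was not tested.

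Counts over all genes moved more. For glutamate against control, zinc against glutamate, TPA against glutamate, TPA against zinc, zinc against control and the averaged contrast they were 6, 0, 0, 72, 8 and 6 in the edgeR fit. In that order they were 14, 1, 1, 481, 61 and 16 with DESeq2, 59, 107, 484, 3131, 1825 and 33 with weights, and 119, 7, 600, 1196, 274 and 13 without the 3 libraries. Fitting only the groups compared gave 3, 0, 0, 6 and 4, robust fitting gave 3 for glutamate against control, and no filter gave 35 for TPA against zinc. Without 1 replicate, TPA against zinc ranged from 7 (without zinc replicate 3) to 895 (without zinc replicate 4) and zinc against control from 3 (without control replicate 1) to 95 (without zinc replicate 4). Replicate numbers were not treated as pairs, since the labels tie them to nothing. Deviations of same-numbered libraries correlated over 0.1 in 11 of 30 pairs. Differently numbered pairs were not set beside them, so this count cannot show whether a number marks a shared culture. All 6 correlations were positive for number 5 (0.0395 to 0.497) and for number 2 (0.0354 to 0.229), those of number 1 ran from -0.0436 to 0.187, and 0 passed 0.1 for numbers 3 and 4. The replicate block gave 0 of the 10 genes, and 397 genes for TPA against zinc and 38 for zinc against control. Depth limits Gadd45a most, with 58 to 138 reads per library.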
